A study of Mus musculus with 6 samples.

Results

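The data described here are the 3 control arrays of a 6-array study of mouse airways, taken as a picture of which genes give the most and the least signal in the larger proximal airways and which of them differ between arrays of the same genotype. The control mice carried Scgb1a1-Cre, a transgene that places Cre recombinase under the promoter of a gene of airway club cells, and their labels name no floxed allele. They were 9 weeks old, of mixed C57BL/6 and 129X1 background, untreated as far as the labels say, and the arrays of the Scgb1a1-cre:Foxp1flox/flox:Foxp4flox/flox animals were not compared with them. Frozen lungs were sectioned and stained with cresyl violet, the airways were cut out with forceps and scissors, and amplified, biotin-labelled RNA was hybridised to 1 array per sample. The labels do not say whether the 3 control samples came from separate mice, so the spread given below may be partly technical. Of the 35556 rows of the table, 21789 name exactly 1 gene, and these stand for 19938 genes with 1 row each. With 1 group of 3 arrays there is no contrast to test, and every value below is a description with no p-value.

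The wall of the large airways holds several kinds of cell. Club cells secrete secretoglobins and break down inhaled chemicals with cytochrome P450 enzymes, ciliated cells move the mucus that goblet and gland cells make, and basal cells renew the layer. Beneath them lie smooth muscle, fibroblasts, vessels and nerves, and in the mouse lymphoid tissue, fat and the heart muscle sleeve of the pulmonary veins can lie close by. A tissue sample of this kind mixes all of them, and fewer cells of a type and less RNA per cell cannot be told apart.

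Values are on the log2 scale, on which a step of 1 is a 2-fold difference in signal. Because probe sets differ in how well they capture their transcript, a rank over genes is a rank of signal and not of transcript number. The array medians over the 19938 genes lay between 6.57 and 6.60. As no detection calls were used, 1027 olfactory receptor genes, which belong to the nose, served as a picture of dim signal. Their median was 3.99, and 95% of their highest single values lay below 5.09. Above that value on all 3 arrays stood 13628 genes, or 68.4%, which is a comparison with those receptors and not a detection call. Controls 2 and 3 were the closest pair (Pearson r over genes 0.992, SD of the difference 0.25). Control 1 correlated at 0.972 with control 2 and at 0.978 with control 3, with SDs of the difference of 0.47 and 0.41.

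**Figure D1:**
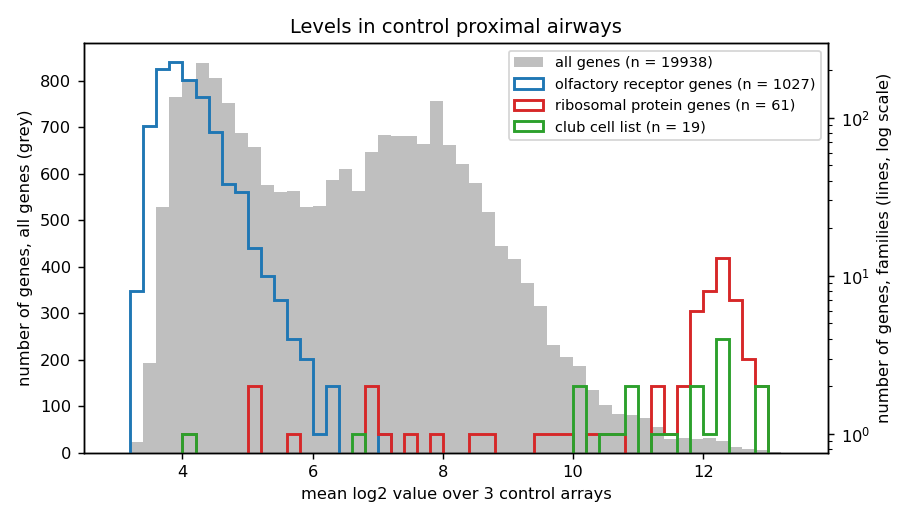
Number of genes (left axis for all genes in grey, logarithmic right axis for the coloured groups) against the mean log2 value over the 3 control arrays. Olfactory receptor genes centre on a median of 3.99, whereas the medians of the ribosomal protein genes (12.05) and of the club cell list (11.40) lie near the upper end.

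Ribosomal protein genes were the largest of the listed groups among the strongest signals. Among the 199 genes with the highest means (the upper 1%, from 11.32 upwards) stood 42 of the 61 ribosomal protein genes measured, 10 of 19 genes of the club cell list, 10 of 70 of the respiratory chain, 7 of 19 of the goblet and gland list and 6 of 14 of the alveolar type 2 list, with some genes in several groups. Another 97 genes (48.7%) belong to no list or family. Cyp2f2, a cytochrome P450 of club cells that oxidises inhaled aromatic compounds, ranked 3 with values of 12.91, 12.85 and 12.91 on controls 1, 2 and 3. The 3 values lay within 0.06 of each other. Cbr2, a carbonyl reductase, ranked 5 (12.89, 12.71 and 12.81), and the retinal dehydrogenase gene Aldh1a1 ranked 29 (12.42, 12.39 and 12.30). Scgb1a1, the secretoglobin gene whose promoter drives the Cre of these mice, ranked 37 (12.41, 12.13 and 12.33).

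Among the other 25 leading genes were those of the translation factor Eef1a1 (rank 6, mean 12.80), of the cytoskeletal actin Actb (rank 7, 12.78), of the secreted protein Wfdc2 (rank 11, 12.65), of lysozyme, Lyz2 (rank 14, 12.63), and of the ferritin heavy chain, Fth1 (rank 16, 12.58). Rps29, a ribosomal protein gene, held rank 2 with 13.02, 12.94 and 13.01. Surfactant protein C, Sftpc, which marks alveolar type 2 cells and not airway cells, ranked 19 (12.64, 12.37 and 12.51). Mgp, which encodes the matrix Gla protein of fibroblasts and cartilage, ranked 22 (12.56, 12.39 and 12.41).

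Rank 1 belonged to Baiap2l1, an adaptor of the actin cytoskeleton, and it rests on the choice of row. The chosen row read 13.06, 12.99 and 13.17, but its transcript accessions were not in the reference gene table. A second such row of the gene averaged 11.05. The row that carries the RefSeq transcript of Baiap2l1 averaged 9.77. What the bright row measures was not tested. COX2, the cytochrome c oxidase subunit gene of the mitochondrial genome (rank 21, 12.51, 12.35 and 12.60), was also read from a row without a RefSeq accession. The other 23 of the 25 leading genes had a row with a RefSeq accession of the same gene.

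The 199 brightest genes varied less than genes at large, but the brightest 25% as a whole did not. The SD over the 3 arrays had a median of 0.131 over all genes (quartiles 0.08 and 0.22), of 0.09 over the 199 brightest and of 0.141 over the brightest 25%. Of these 199 genes, 7 spanned at least 2-fold between the highest and the lowest array. They were Bpifa1, Lcn2, Chil1, Pglyrp1, Myl7, Cd52 and Laptm5. Bpifa1, a secreted defence protein of the upper airway surface, read 12.70 and 12.24 on controls 1 and 2 but 10.81 on control 3. Lcn2, which encodes the iron-siderophore binding protein lipocalin 2, read 10.38 on control 1 and 12.73 and 12.45 on controls 2 and 3. Cd52, a surface glycoprotein gene of lymphocytes, read 10.08 on control 1 and 11.96 and 12.01 on the others. Myl7, the atrial myosin light chain gene, had its highest value on control 1 (12.51, against 10.44 and 11.24).

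Over all genes, 945 (4.74%) spanned at least 2-fold between the 3 arrays, 215 (1.08%) at least 4-fold, 52 at least 8-fold and 14 at least 16-fold. Without control 1 the first count was 105. At the other end, 4640 genes (23.3%) stayed within 1.1-fold. Spread depended on level. In the dimmest 25% of genes the median SD was 0.082, and 0.201% of them spanned 2-fold. The share was 5.90% in the next 25%, 8.01% in the 25% above it and 4.85% in the brightest 25%.

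**Figure D2:**
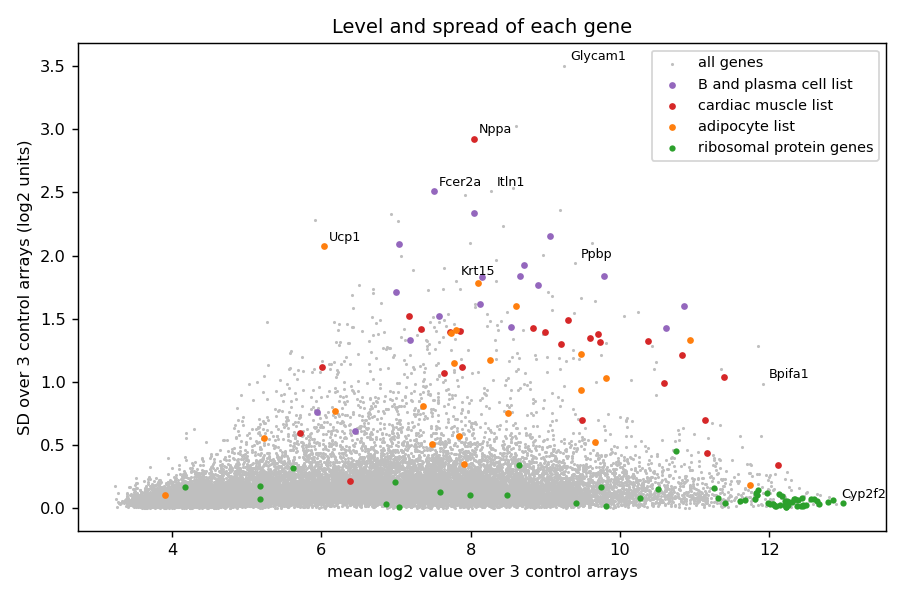
SD over the 3 control arrays (log2 units) against the mean log2 value of each of 19938 genes, with members of 4 groups in colour and some genes named. Ribosomal protein genes lie low at the right (median SD 0.06), while most members of the B and plasma cell list (median SD 1.74) and the cardiac muscle list (median SD 1.30) lie far above the median of all genes, 0.13.

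Of the 199 genes with the largest SD between control arrays, 16 belong to the cardiac muscle list, 16 to the B and plasma cell list, 9 to the adipocyte list, 7 to the T and NK cell list and 3 to the goblet and gland list, while 116 (58.3%) belong to no list or family. Glycam1, a mucin-like ligand of L-selectin on the high endothelial venules of lymphoid tissue, had the largest SD (3.50). It read 5.21 on control 1 and 11.40 and 11.16 on controls 2 and 3, a span of at least 72.7-fold (0.24 on the log2 scale without control 1). On control 1 it thus lay near the level of olfactory receptor genes, for which reason the span is given as a lower bound, and on the other arrays among the bright genes. Nppa, which encodes atrial natriuretic peptide of heart atria, was the reverse, at 11.37 on control 1 and 5.90 and 6.84 on the others (44.3-fold, or 0.94 on the log2 scale without control 1).

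B cell genes made up a large part of the 25 most variable genes. Fcer2a, the low-affinity IgE receptor, read 4.64, 9.28 and 8.59 on controls 1, 2 and 3. Ms4a1, the B cell surface protein CD20, read 5.36, 9.57 and 9.20. Cd79a, the signalling chain of the B cell receptor, read 6.57 on control 1 and 10.33 and 10.29 on the others, which lay within 0.04 of each other. The chemokine receptor Cxcr5, the BAFF receptor Tnfrsf13c, the adaptors Bank1 and Lax1, the receptors Fcrl1 and Fcmr, the transcription factor Spib, the plasma cell chaperone Mzb1 and Cd79b were all lowest on control 1, with means from 7.04 to 9.78.

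Another 5 of the 25 were lowest on control 1 without being lymphocyte genes. Itln1, a lectin that binds microbial glycans, read 5.50 on control 1, 10.39 on control 2 and 8.93 on control 3. The mucosal chemokine gene Ccl28 read 6.10, 9.82 and 9.08. Cd177, a surface protein of neutrophils, read 7.29, 11.37 and 10.19, although the granulocyte and mast cell list as a whole was not lowest there (its mean was 6.53, 6.01 and 6.34). Wfdc18 (5.08, 9.66 and 9.01) and Ceacam10 (4.27, 8.59 and 7.93) were also lowest on control 1. In each of these 5 genes control 2 was the highest array.

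Fat and muscle genes ran the other way. Ucp1, the uncoupling protein of brown fat, read 8.43 on control 1 and 4.82 and 4.84 on controls 2 and 3, the last 2 below the dim reference of 5.09. Pck1, a gluconeogenic enzyme also active in fat, read 10.11, 6.72 and 7.47, and the muscle protein gene Smpx read 10.22, 6.64 and 8.16. All 3 were highest on control 1.

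A few of the most variable genes did not set control 1 apart. Ppbp, the platelet basic protein gene, was lowest on control 2 (11.17, 7.32 and 9.70). Krt15, a keratin of basal cells, was highest on control 1 and lowest on control 3 (9.56, 7.87 and 5.96). Adck1 read 6.21, 8.24 and 11.25, but that row has no RefSeq accession, and the row with the RefSeq transcript of Adck1 stayed at 5.74, 5.62 and 5.61. Its place among variable genes thus rests on the row chosen. Immunoglobulin segments, counted as a group, gave 11 of the 199 most variable genes. Their values include Igha, the heavy chain gene of IgA, at 7.20, 8.59 and 11.80, for which control 3 was the highest array.

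The steadiest bright genes were mostly outside the gene lists. Of the 199 with the smallest SD in the brightest 25%, 180 (90.5%) belong to no list or family and 9 encode ribosomal proteins. Among the 4985 genes of the brightest 25% (means of at least 8.08), the 25 with the smallest SD all had an SD of at most 0.010. They include the lipid kinase gene Pi4kb (8.30, 8.30 and 8.31), the nuclear protein gene Bclaf1 (9.90, 9.91 and 9.91), the integrin-associated surface protein gene Cd47 (10.92, 10.93 and 10.92), the cytokine co-receptor Il6st (10.88, 10.88 and 10.87) and the splicing regulator Mbnl1 (11.12, 11.13 and 11.13). The ribosomal protein genes Rplp0 (12.23, 12.22 and 12.21) and Rpl37a (12.21, 12.22 and 12.23) were the brightest of the 25. The histone methyltransferase Setd2, the kinases Map3k7 and Dyrk1a, the chromatin subunit Arid1b and the importin Kpna2 were also among them. With any 1 array left out, 1 to 3 of these 25 genes stayed among the 25 steadiest. Where several rows named 1 of these genes, the further rows were less steady for the following genes. The other row of Rplp0, also with a RefSeq accession, was dimmer (mean 10.53) and had an SD of 0.161, against 0.009 for the row used. For Cd47 the SD was 0.074 in the second row against 0.005, for Setd2 0.069 against 0.008, for Dyrk1a 0.054 against 0.010, and for Kpna2 0.034 and 0.026 in the further rows against 0.010.

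Genes often used as references were about as steady as genes at large. None of 19 spanned 2-fold, and their median SD was 0.12, against 0.13 over all genes. Actb read 12.73, 12.82 and 12.79, and B2m, the light chain of MHC class I, read 12.13, 12.03 and 12.23. The mitochondrial members varied more and were highest on control 1. Sdha, a subunit of succinate dehydrogenase, read 10.15, 9.60 and 9.58, and Cyc1 of the respiratory chain read 9.91, 9.41 and 9.54. The tubulin gene Tubb5 was lowest there (10.23, 10.78 and 10.71).

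Promoter sequences from RefSeq (mouse assembly GRCm38.p6, 250 bases before to 50 bases after the gene start) were set beside these classes of genes. The following 4 are shown because they belong to the brightest club cell gene, to a steady reference gene and to the pair of genes with the largest named spread, and they were picked after their values were seen. Capitals mark TATAAA, the core of the TATA box, and the dinucleotide CG.
Cyp2f2, chr7:27119705-27120004, plus strand: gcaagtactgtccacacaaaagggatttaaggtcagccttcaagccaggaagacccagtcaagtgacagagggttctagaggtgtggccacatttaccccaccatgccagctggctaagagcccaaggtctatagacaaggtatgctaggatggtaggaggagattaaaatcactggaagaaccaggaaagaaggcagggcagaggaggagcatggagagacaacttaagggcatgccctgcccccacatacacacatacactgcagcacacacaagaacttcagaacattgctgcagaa
Ppia, chr11:6415617-6415916, plus strand: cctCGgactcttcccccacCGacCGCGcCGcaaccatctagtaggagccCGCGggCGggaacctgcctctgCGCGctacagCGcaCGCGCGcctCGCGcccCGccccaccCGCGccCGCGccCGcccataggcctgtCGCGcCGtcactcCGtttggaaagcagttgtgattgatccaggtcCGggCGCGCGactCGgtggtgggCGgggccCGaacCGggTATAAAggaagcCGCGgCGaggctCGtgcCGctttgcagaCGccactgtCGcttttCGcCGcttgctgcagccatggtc
Nppa, chr4:148000472-148000771, plus strand: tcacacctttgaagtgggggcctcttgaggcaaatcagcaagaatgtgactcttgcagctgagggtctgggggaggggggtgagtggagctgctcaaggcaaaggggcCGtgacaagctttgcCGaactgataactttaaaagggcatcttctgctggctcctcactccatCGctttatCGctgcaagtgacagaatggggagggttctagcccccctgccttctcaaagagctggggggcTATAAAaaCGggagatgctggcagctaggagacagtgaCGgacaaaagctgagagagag
Glycam1, chr15:103565032-103565331, minus strand: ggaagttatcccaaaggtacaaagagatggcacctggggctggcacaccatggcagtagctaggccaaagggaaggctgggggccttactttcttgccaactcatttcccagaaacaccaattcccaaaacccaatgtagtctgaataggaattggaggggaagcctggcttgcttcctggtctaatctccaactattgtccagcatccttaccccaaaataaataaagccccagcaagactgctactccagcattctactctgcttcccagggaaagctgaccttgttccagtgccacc
The windows of Cyp2f2 and Glycam1 hold no CG and no TATAAA. Ppia, a peptidyl-prolyl isomerase whose array values were 12.12, 12.09 and 12.12, has 43 CG in its window and TATAAA starting 29 bases before the gene start. Nppa has 6 CG, and its TATAAA starts 9 bases before the annotated start.

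Over whole classes, both CG content and the TATA motif differed. A promoter was found for 15563 of the 19938 genes, in 19116 windows. The median number of CG per window was 15 over all genes, 23 for the 199 steadiest bright genes, 21 for the whole brightest 25%, 18 for the 199 brightest genes and 5 for the 199 most variable. TATAAA on the gene's strand was found in 7.32% of the windows of all genes and in 8.32% of all 32851 windows in the table. It was found in 13.7% of the windows of the brightest class (26 of 190), 13.6% of the most variable (24 of 177) and 4.70% of the steadiest (10 of 213, against 4.81% for the brightest 25%). With the shorter TATAA, which every TATAAA contains, the steadiest class stood at 13.6% and the brightest 25% at 9.41%. On the opposite strand the shares were 5.44% for all genes, 5.26%, 5.09% and 3.76%. Placed between 45 and 16 bases before the start, where a TATA box acts, the motif was in 2.42%, 6.32%, 5.65% and 0.939% of the windows. A match is a run of letters and not a site shown to be used.

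Club and ciliated cell genes were bright, and none spanned 2-fold between arrays, against 4.74% of all genes. Their median SDs, 0.175 and 0.174, were nonetheless above that of all genes, 0.131. All but 1 of the 19 measured club cell genes lay above the olfactory reference, with a median of 11.40. The exception was the potassium channel gene Kcnj16 (4.28, 4.18 and 4.13). The club cell genes that varied most were Scnn1b, an epithelial sodium channel subunit (9.68, 10.11 and 10.36), and Cyp4b1 (11.23, 10.62 and 10.97). Of 25 ciliated cell genes 24 lay above the reference, with a median of 8.90. Tppp3, a tubulin-binding protein gene, read 11.00, 11.16 and 10.93, and Sntn, of the tip of the cilium, read 10.65, 10.98 and 10.52. Control 1 was the highest array for 0 of the 25 ciliated genes and the lowest for 4, against 43.1% and 30.1% of all genes.

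Goblet and gland genes were nearly as bright but less even. Their median was 10.99, and 6 of 19 (31.6%, against 4.74% of all genes) spanned 2-fold. The 4 brightest members spanned less than 2-fold: Lyz2, the secreted protein gene Bpifb1 (12.42, 12.40 and 11.90), the trefoil factor gene Tff2 (11.98, 12.21 and 11.94) and the lectin gene Reg3g (11.76, 12.21 and 11.98). Bpifa1 and Lcn2, next in brightness, did span 2-fold, as given above. So did Pigr (10.45, 11.70 and 11.54) and Agr2 (10.98, 11.59 and 10.42). Muc5ac, the gel-forming mucin of goblet cells, read 7.33, 10.15 and 8.62, and Clca1, a secreted goblet cell protein, read 7.49, 10.62 and 9.14. For both, control 2 was highest by over 2-fold and control 1 lowest by over 2-fold. Slpi, a secreted protease inhibitor outside the list, had the same order (8.39, 10.73 and 9.22).

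Basal cell genes had a lower median (7.34), and 6 of 19 (31.6%, against 4.74% of all genes) spanned 2-fold. Krt5, the basal keratin, read 8.17, 7.42 and 6.43. Trp63, the transcription factor of basal cells, read 7.79, 6.56 and 6.31, and S100a14 read 7.81, 7.86 and 6.80. Control 1 was the highest array for 16 of the 19 genes, against 43.1% of all genes. The list's mean was 7.76, 7.32 and 7.01, and Krt15, Krt5, Trp63 and S100a14 were lowest on control 3. Without control 1, 3 members spanned 2-fold. Rare epithelial types had low list medians, 5.95 for tuft cells and ionocytes and 5.91 for neuroendocrine cells, against 6.59 over all genes. Above the olfactory reference on all 3 arrays lay 11 of 16 and 11 of 14 members, against 68.4% of all genes. The brightest member of the first list had a mean of 9.13. In the first, the tuft cell transducin Gnat3 read 4.49, 3.94 and 3.87 and the chloride channel gene Cftr read 4.46, 4.71 and 5.14. In the second, Nnat was brightest and highest on control 1 (10.26, 8.97 and 9.21).

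**Figure D3:**
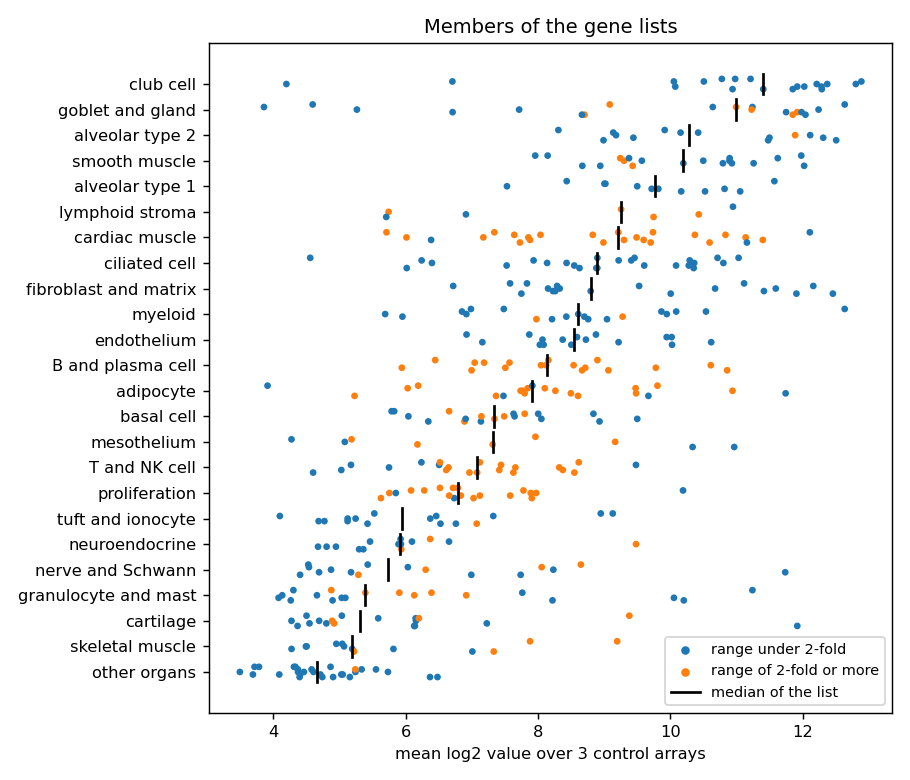
Mean log2 value over the 3 control arrays of each member of 24 gene lists, with the median of each list as a black bar and members whose arrays span at least 2-fold in orange. Club cell genes have the highest median (11.40) and no orange point, while all 18 B and plasma cell genes are orange.

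Transcription factors known from lung epithelium and mesenchyme were all above the dim reference. The 28 genes had a median of 8.85 and a median SD of 0.21, against 0.13 over all genes, and 3 (10.7%, against 4.74%) spanned 2-fold (0 without control 1, 1 without control 2). The brightest were Nfib (10.96, 10.50 and 10.52), Foxf1 of lung mesenchyme (10.73, 10.02 and 10.48), Nfia (10.65, 10.26 and 10.27) and the epithelial factor Ehf (10.21, 10.28 and 10.24). The T-box gene Tbx5, active in lung mesenchyme and heart, varied most (8.71, 7.17 and 7.99), followed by Id1 (9.23, 8.20 and 8.53). Elf5, an epithelial ETS factor, was lowest on control 1 (7.46, 8.20 and 8.46).

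Genes of the alveolar lists were bright as well. All 14 alveolar type 2 genes lay above the reference, with a median of 10.29. The surfactant genes Sftpb (12.29, 12.24 and 12.40) and Sftpa1 (12.09, 12.01 and 12.24) stood among the brightest 1%, and only Chil1, a chitinase-like protein gene, spanned 2-fold (11.23, 12.20 and 12.24), which it did not without control 1 or without control 3. Of 12 alveolar type 1 genes none did. Ager, the receptor for advanced glycation end products, read 11.39, 10.72 and 11.06. Control 1 was the highest array for 10 of the 12, against 43.1% of all genes. The mean of the list was 10.04, 9.50 and 9.74 on controls 1, 2 and 3. How much alveolar tissue the samples held, and which cells gave these signals, was not tested.

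Smooth muscle genes had a median of 10.20, and control 1 was the highest array for all 19, against 43.1% of all genes. Acta2, smooth muscle actin, read 12.22, 11.89 and 11.96, and the myosin heavy chain gene Myh11 read 11.72, 11.04 and 11.01. The 3 members that spanned 2-fold (15.8%, against 4.74% of all genes) were Pln (10.98, 8.16 and 8.75), which is also in the cardiac list, Hspb6 (10.22, 8.87 and 9.20) and Synpo2 (9.87, 8.99 and 8.86). Without control 1, none spanned 2-fold. Fibroblast and matrix genes were more even, with a median SD of 0.14 and none of 19 spanning 2-fold. Sparc, a collagen-binding matrix protein, read 12.25, 12.09 and 12.14, and the proteoglycan gene Dcn read 12.07, 11.92 and 11.73. Endothelial genes had a median of 8.55 and a median SD of 0.36 with none of 16 spanning 2-fold. Control 1 was the highest array for 13 of the 16, against 43.1% of all genes. Control 2 was the lowest array for the brightest endothelial genes Cdh5 (10.90, 10.19 and 10.76) and Pecam1 (10.15, 9.69 and 10.23).

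Cartilage genes were dim, with 9 of 18 above the olfactory reference and a median of 5.31. Acan, the aggrecan of cartilage matrix, read 5.95, 4.29 and 4.51, and Sox9, the transcription factor of chondrocytes, read 6.89, 6.01 and 5.70. Of the 18, 17 were highest on control 1, against 43.1% of all genes. Chad, a leucine-rich matrix protein, was the bright exception (12.06, 11.86 and 11.84) and stands in the club cell list too. Cytl1, a secreted protein of cartilage, was bright and variable (10.92, 7.82 and 9.40).

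Heart muscle genes were highest on control 1 as a group. Of 25 measured genes, 24 lay above the olfactory reference and 22 spanned 2-fold (88.0%, against 4.74% of all genes). Control 1 was the highest array for all 25, against 43.1% of all genes. On control 1, 19 of them were at least 2-fold above both other arrays, against 0.948% of all genes. The list's mean was 10.25 on control 1, 7.99 on control 2 and 8.67 on control 3. Actc1, cardiac actin, was bright on every array (12.51, 11.92 and 11.89). The troponin gene Tnnt2 read 11.91, 10.56 and 10.94, the creatine kinase gene Ckmt2 read 8.81, 5.80 and 6.91, and the sarcomere gene Myoz2 read 10.40, 7.60 and 8.49. On control 3 each of these 3 lay between the other arrays. Without control 1, 2 members spanned 2-fold. Outside the list, Lmod2 (9.34, 6.72 and 6.96) and Ankrd1 (9.24, 6.70 and 6.54), both of heart muscle, and the heart potassium channel gene Kcnj3 (8.02, 5.33 and 5.69) were also highest on control 1.

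Skeletal muscle genes were mostly dim. Of 13, 5 lay above the reference. Control 1 was the highest array for 9, against 43.1% of all genes, and 4 (30.8%, against 4.74%) spanned 2-fold. The muscle troponin genes Tnnt3 (10.11, 8.92 and 8.56) and Tnni2 (mean 7.33) and the creatine kinase gene Ckm (9.15, 7.05 and 7.44) were at least 2-fold higher on control 1 than on both others. The fourth, the calcium-binding protein gene Pvalb, was lowest there (4.42, 5.67 and 5.57).

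Fat cell genes shared the order of the heart muscle genes. Of 21, 18 lay above the reference and 16 spanned 2-fold (76.2%, against 4.74% of all genes). Control 1 was the highest array for 20, against 43.1% of all genes, and the list's mean was 9.14, 7.38 and 7.73. Adipoq, the adiponectin gene, read 10.33, 7.17 and 8.31, and Plin1, which coats lipid droplets, read 9.36, 6.64 and 7.38. Car3, a carbonic anhydrase gene of fat and muscle, read 12.33, 9.68 and 10.81. Scd1, a fatty acid desaturase gene, was bright and even (11.94, 11.57 and 11.72). Without control 1, 2 members spanned 2-fold. Hamp, which encodes the iron hormone hepcidin, and the steroid-converting Akr1c18 belong to no list and were also highest on control 1, at 11.80, 9.38 and 8.98, and at 6.97, 4.38 and 4.46.

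Among respiratory chain genes, control 1 was the highest array for 63 of 70, against 43.1% of all genes, but the differences were mostly small. The genes that spanned 2-fold, 3 of 70 (4.29%, against 4.74% of all genes), were Cox8b (11.39, 8.13 and 9.46), Cox6a2 (11.80, 9.19 and 10.12) and Cox7a1 (9.93, 7.59 and 8.42), all muscle isoforms of cytochrome c oxidase subunits. In the opposite direction, control 1 was the lowest array for 45 of 61 ribosomal protein genes, against 30.1% of all genes, none of which spanned 2-fold (mean of the family 10.93, 11.01 and 11.03).

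B and plasma cell genes were lowest on control 1 as a group. All 18 spanned 2-fold, against 4.74% of all genes. Control 1 was the lowest array for all 18 (30.1% of all genes were lowest there). On control 1, 17 lay at least 2-fold below both other arrays, against 1.58% of all genes. The list's mean was 6.30 on control 1, 9.29 on control 2 and 9.10 on control 3. Jchain, which links IgA and IgM chains, read 9.02, 11.66 and 11.90. Ighm, the IgM heavy chain, read 9.07, 10.86 and 11.90, from a row without a RefSeq accession. Above the dim reference on all 3 arrays were 14 of the 18. Without control 1, 1 member spanned 2-fold.

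Most T cell genes and genes of lymphoid stroma showed the same order. Of 21 T and NK cell genes, 14 (66.7%, against 4.74% of all genes) spanned 2-fold. Control 1 was the lowest array for 17, against 30.1% of all genes. Cd3e of the T cell receptor complex read 7.18, 9.41 and 9.05, and the co-stimulatory receptor Cd28 read 5.62, 8.59 and 8.67. Thy1 did not share the gap (9.01, 9.44 and 9.99). The genes of cytotoxic granules Gzma (6.11, 5.52 and 5.62), Gzmb (5.30, 5.03 and 5.18) and Prf1 (6.41, 5.95 and 6.36) and the NK cell receptor Ncr1 (4.76, 4.29 and 4.75) were highest on control 1, each by less than 2-fold. Without control 1, 0 members spanned 2-fold. The chemokine genes Ccl19 (9.02, 11.55 and 10.72) and Cxcl13 (8.35, 10.53 and 10.36), which draw lymphocytes into lymphoid tissue, and the venule adhesion molecule Madcam1 (4.84, 6.42 and 5.96) were lowest on control 1, while Clu, which other cells also make, was even (10.91, 11.04 and 10.90). How much lymphoid tissue each sample held was not tested.

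Genes of dividing cells had the order of the lymphocyte genes. All 19 were lowest on control 1, against 30.1% of all genes, and 16 (84.2%, against 4.74%) spanned 2-fold. The list's mean was 6.06, 7.57 and 7.42. Mki67, the marker of cycling cells, read 6.62, 8.51 and 8.60, and the cyclin gene Ccna2 read 6.26, 8.76 and 8.65. Pcna, the DNA polymerase clamp, spanned less (9.97, 10.32 and 10.29). Controls 2 and 3 differed by under 2-fold in all 19.

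Macrophage and other myeloid genes varied less than lymphocyte genes. On the 3 arrays, 2 of 19 (10.5%, against 4.74% of all genes) spanned 2-fold. They were Ly86, also of B cells (7.93, 10.04 and 9.86), and the chemokine receptor Ccr2 (7.33, 8.55 and 8.04). None spanned 2-fold without control 1, and 1 did without control 2. Control 1 was the lowest array for 12 of the 19 and the highest for 4, against 30.1% and 43.1% of all genes. The mannose receptor gene Mrc1 read 8.47, 7.82 and 8.35, and the complement gene C1qc read 9.59, 10.10 and 10.15. Among the 19 granulocyte and mast cell genes, control 1 was the highest array for 13 and the lowest for 2. Over all genes these shares were 43.1% and 30.1%. Of the 19, 6 (31.6%, against 4.74% of all genes) spanned 2-fold. The calprotectin pair S100a8 (10.41, 9.71 and 10.48) and S100a9 (10.33, 9.59 and 10.25) were lowest on control 2, as was the neutrophil granule gene Ngp (6.71, 4.81 and 6.87). The mast cell protease gene Cpa3 was above the olfactory reference on control 1 and below it on the others (5.79, 4.38 and 4.45). H2-Aa, an MHC class II chain of antigen-presenting cells, was lowest on control 1 (11.10, 12.05 and 11.73).

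**Figure D4:**
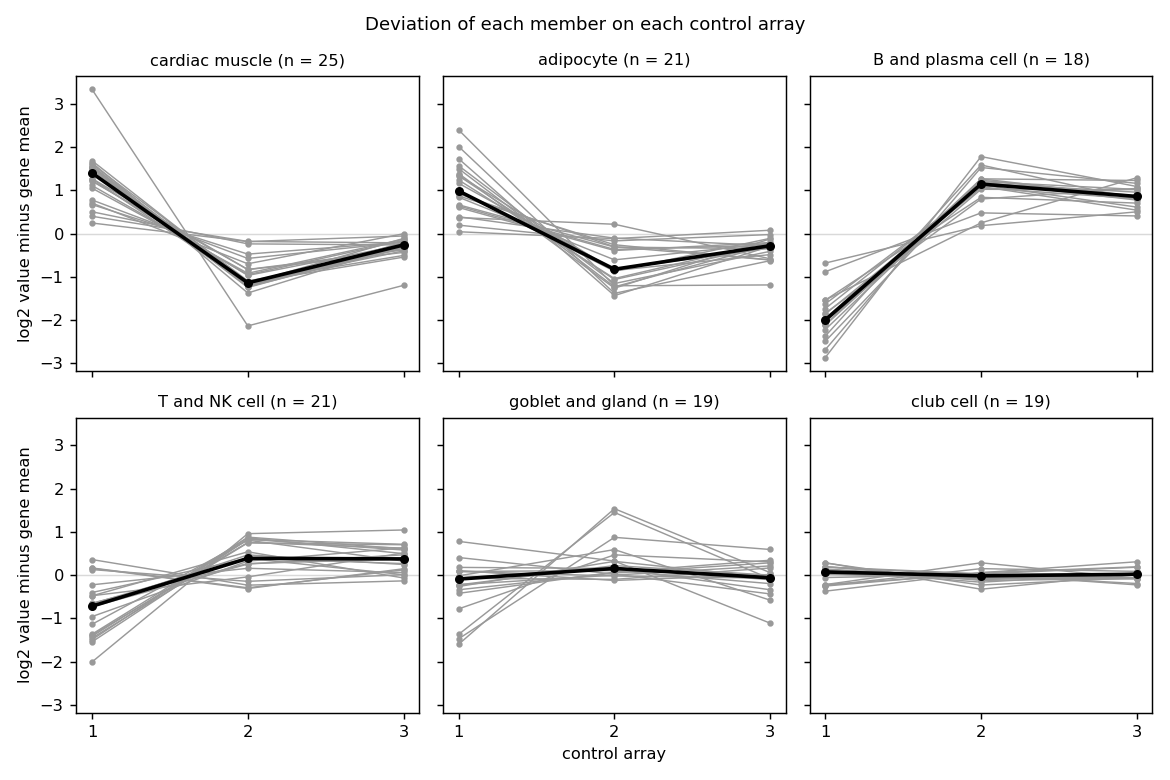
Each grey line is 1 gene, and the points give its log2 value on controls 1, 2 and 3 minus its own mean, with the median of the list in black. Lines only join the values of a gene, since the arrays have no order. All 25 cardiac muscle genes lie above 0 on control 1 and all 18 B and plasma cell genes below 0, while the 19 club cell genes stay close to 0.

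Counted over all 945 genes that spanned 2-fold, control 1 was the array farthest from the middle one for 761 (80.5%), control 2 for 123 and control 3 for 61. Control 1 was the higher array in 317 of its genes and the lower in 444. Among the 199 genes with the largest SD it was the distant array for 181, lower in 116 and higher in 65. The gap between control 1 and the mean of the other 2 arrays held 78.6% of the sum of squares within genes, and the difference between controls 2 and 3 held 21.4%. Set apart in the same way, control 2 held 44.4% and control 3 held 27.0%. Between controls 2 and 3, 105 genes (0.527%) differed by 2-fold, against 789 (3.96%) between controls 1 and 2 and 641 (3.21%) between controls 1 and 3. The labels give no reason to single out control 1, and which array is unusual cannot be told from 3 arrays.

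**Figure D5:**
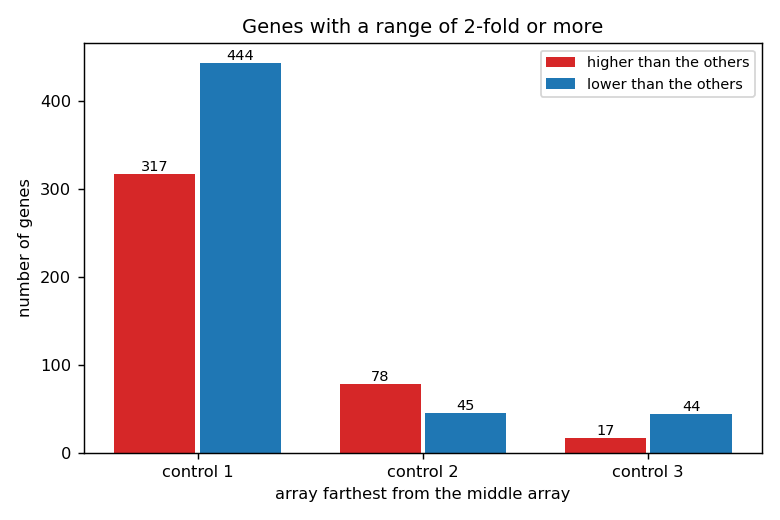
Number of genes among the 945 that span at least 2-fold, by the array that lies farthest from the middle array and by its direction. Control 1 accounts for 317 higher and 444 lower genes, control 2 for 78 and 45, and control 3 for 17 and 44.

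Controls 2 and 3 had smaller sets of their own. On control 2, 38 genes (0.191%) were at least 2-fold above both other arrays and 23 (0.115%) at least 2-fold below. Besides Muc5ac, the higher ones were led by Sectm1b (5.10, 7.84 and 5.54), the mucosal defence gene Dmbt1 (5.47, 7.16 and 5.09) and the chemokine receptor gene Ccr6 (4.88, 8.04 and 6.36). The protease gene Mmp7 (4.99, 7.08 and 5.55) and Rmrp, an RNA component of a ribonuclease (9.26, 10.81 and 8.94), were also among them. Among the lower ones were Ppbp, given above, and Gp9, a platelet glycoprotein gene, at 8.20, 5.93 and 7.29. Another, Zbtb16, a zinc finger transcription factor gene, read 9.71, 8.04 and 9.53.

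On control 3, 9 genes (0.0451%) were at least 2-fold above both other arrays and 15 (0.0752%) below. Of the 9 higher ones, 6 are immunoglobulin genes, among them Igha. The others were Adck1, whose row is in doubt as described, the cornified envelope gene Rptn (5.23, 6.02 and 7.39) and the interferon-inducible Ifi206 (5.06, 6.03 and 7.26). Gmnc, which starts the ciliated cell program, fell just short of that set with a gap of 0.99 on the log2 scale (6.82, 7.31 and 8.30). Lower on control 3 were the lipoxygenase gene Alox15 (8.40, 7.54 and 6.14), the stress-induced Atf3 (9.10, 9.32 and 7.57) and the large mucin Muc16 (9.92, 9.37 and 8.20).

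Most genes that respond to handling, stress or the time of day did not span 2-fold. The share that did was nonetheless above the 4.74% of all genes in each of the following lists. Counts of 1 to 3 genes per list are too small to set apart from that share. Of 26 immediate early genes, 3 (11.5%) spanned 2-fold: Nr4a1, an orphan nuclear receptor gene (8.44, 9.83 and 7.64), Atf3, and Ccn1, a matricellular protein gene (9.06, 9.41 and 7.97). Each was lowest on control 3, without which 1 spanned 2-fold. Of 16 clock genes 2 (12.5%) spanned 2-fold, namely Hlf (9.07, 8.53 and 7.82) and Per2 (8.88, 7.96 and 7.74), and 0 did without control 1 or without control 3. The repressor gene Nr1d1 read 10.24, 10.78 and 11.14, and Arntl, which it represses, read 5.57, 6.39 and 6.43. Of 12 heat shock genes 1 (8.33%) spanned 2-fold, the inducible Hspa1a (9.86, 8.14 and 7.84), and 0 did without control 1. That count rests on the rows chosen. Hspa8 read 12.23, 12.06 and 12.22 in the row used, but 11.67, 9.54 and 11.72 in another row with a RefSeq accession. A further row of Hspa8 was even (mean 12.10, SD 0.11). Of 16 interferon response genes 4 spanned 2-fold, against 4.74% of all genes, among them the chemokine gene Cxcl9 (6.59, 8.11 and 8.29). Control 1 was the lowest array for 11 of the 16, against 30.1% of all genes. Without control 1, 0 of them spanned 2-fold, and without control 2, 1 did.

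Sex-linked genes were alike on all 3 arrays. Xist, the RNA of the silenced X chromosome, read 4.38, 4.09 and 4.50, at the level of the olfactory receptor genes. The Y-linked genes lay above that level, with Eif2s3y at 8.46, 8.48 and 8.47, Kdm5d at 7.33, 7.45 and 7.39, and Uty at 6.81, 7.02 and 6.80. Of genes known to differ between laboratory strains, Casp4 read 8.63, 9.22 and 8.81, Nnt 7.19, 7.79 and 7.71, and Disc1 5.80, 5.58 and 5.88, with no span of 2-fold.

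Genes of distant organs served as a further check of dim signal. Of 28, 7 lay above the olfactory reference, and their median was 4.66. The liver apolipoprotein gene Apoa2 (6.64, 6.60 and 6.20) and the meiosis gene Sycp3 (6.71, 6.21 and 6.17) were the brightest. Umod, a kidney protein gene, was the single member to span 2-fold (4.58, 5.93 and 5.20), and it did not without control 1 or without control 2. Nerve and Schwann cell genes, red cell genes and mesothelial genes had medians of 5.73, 6.67 and 7.31. In these lists 4 of 16, 1 of 4 and 5 of 9 genes spanned 2-fold, against 4.74% of all genes. Their median SDs were 0.31, 0.42 and 0.52, against 0.13 over all genes. Control 1 was the highest array for 14, 4 and 7 of their genes, against 43.1% of all genes. The most variable member of each list was highest on control 1: Cdh19 of Schwann cells (6.58, 4.79 and 4.48), the heme synthesis gene Alas2 (8.73, 6.98 and 6.92) and Upk3b of the mesothelium (7.23, 5.55 and 5.75). Lyve1 led the 6 lymphatic endothelium genes, none of which spanned 2-fold (10.61, 9.97 and 10.29).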

How the data were processed

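The values are log2 signals of probe sets on 6 arrays as the authors deposited them, of which the 3 control arrays were described. Per the submitters' processing notes, oligo, RMA and limma were used, in versions not given in the sources used here. The RMA method subtracts background, equalises the distributions of arrays and combines probes, and it narrows differences between dim probe sets. It is also not known here whether all 6 arrays were normalised together, nor when they were scanned, so no batch could be examined.

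Of 35556 rows, 21789 name 1 gene, 1621 several and 12146 none in the platform annotation. For 999 genes with several rows, the row brightest on average over all 6 arrays was taken, and the mutant arrays were used for nothing else. The chosen row carried a RefSeq accession of the same gene for 19072 genes, none for 744, one not in the reference table for 118 and one of another gene for 4. Genes measured only in rows that name several genes were not analysed here.

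Per gene the mean, SD and range over 3 arrays were computed on the log2 values as deposited, with no filter. Fold spans are 2 to the power of the range. No test was made, as 1 group allows none. The number of arrays limits the precision. The procedure was tested on simulated data. Work was done in Python 3.11.15 with pandas 2.3.3, numpy 2.4.6 and matplotlib 3.10.9.

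Members and the 34 gene lists were chosen with earlier results of these data known, and the 16 gene families are fixed by symbol. Named genes were the 25 with the highest mean, the 25 with the largest SD, the 25 with the smallest SD in the brightest 25%, for each array and direction the 8 with the largest gap to the nearer array, and of each list up to 4 by mean and 4 by SD, with every sex-linked and strain gene. Predicted transcripts, small RNAs, receptors of smell and immunoglobulin segments were left out of the first 4 sets. Named outside this rule, after their values were seen, were Kcnj16, Pglyrp1, Cd52, Laptm5, Igha, Ppia, Cox8b, Cox6a2, Cox7a1, H2-Aa, Mrc1, Gzma, Gzmb, Prf1, Ncr1, Pigr and Agr2. List symbols Clca3, Faim3, Epb4.2, Cyr61 and Ctgf were matched through synonyms.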

Additional observations from a re-analysis of the deposited data

How the results depend on the processing

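Of the 945 genes that spanned 2-fold, the count became 926 after repeated quantile normalisation, 945 after median centring, 940 with the mean of a gene's rows, 947 with the row chosen on controls alone, 805 without the dimmest 40% of genes and 918 with RefSeq rows only. It was 1673 over all rows of the table, 2823 at 1.5-fold and 215 at 4-fold, and between 105 (without control 1) and 789 (without control 3) with 1 array left out. The share of the sum of squares held by control 1 stayed between 71.0% and 80.8% under the settings that kept all 3 arrays. Of the 25 brightest genes 20 to 25 were kept under every setting tried. Of the 25 most variable, 5 (without control 1) to 22 were kept with 1 array left out. Of the 25 steadiest, 1 to 3 were kept with 1 array left out, and 11 when chosen from the brighter 50% of genes. Widening the motif to TATAA raised its share to 14.7% of windows of all genes, 25.3% of the brightest, 21.5% of the most variable and 13.6% of the steadiest class (9.41% of the brightest 25%), and narrowing TATAAA to the bases near the start lowered it to 2.42%, 6.32%, 5.65% and 0.939%. Single lists moved with normalisation in 3 cases: mesothelial genes spanning 2-fold went from 5 to 3 after quantile normalisation, red cell genes from 1 to 2 and endothelial genes from 0 to 1 after median centring. Leaving out arrays for the steadiest genes and for list members, RefSeq rows and the narrowed motif were chosen after seeing the data. No paired analysis was possible because a single group is described and no comparison between groups is made.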
